A study of Mus musculus with 8 samples.

Results

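The transcripts described here are those of 10 genes that mark fibroblasts and embryonic mesenchyme without being collagens: Postn, Pdgfra, Dcn, Lum, Twist1, Prrx1, Tnc, Fn1, Sparc and Thy1. Their levels were read on arrays in fluorescent cells that had been sorted out of 2 tissues, cortex and lung, of E13.5 mouse embryos. Embryos of both groups came from the same homozygous Tie2-GFP mice, whose reporter is driven by the promoter of Tek, the gene of an endothelial receptor. That promoter is also known to be active in some blood cells. The labels name no drug or other genotype, and both tissues were cut up and digested with collagenase before sorting. The cortex had been freed of its meninges, a membrane rich in fibroblasts, and of choroid plexus. An array stands for 1 tissue of 10 to 13 pooled littermates, and 4 litters were used in all, so that cortex and lung arrays share litters. The labels do not say that equal numbers do, so the main fit was not paired. There were 4 cortex and 4 lung arrays, which carry the numbers 72, 22, 19 and 18 in either tissue. Of the 45037 probe sets that are not controls, 22 name exactly 1 of these genes, and each gene was followed on the one of its probe sets that had the highest mean of all 8 arrays. The 10 genes are thus 10 of the 18193 genes tested, and all 10 were measured.

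Values are log2 expression values, on which 1 unit is a 2-fold difference and which carry no detection call. Tissue was taken from the titles. For the 4 samples with the numbers 19 and 18 the description states the opposite tissue, while title, source name and tissue label give the same one. Tek, the gene whose promoter drives the reporter, lay at 11.70 ± 0.84 in cortex and 12.93 ± 0.28 in lung (mean ± SD, n = 4 each). All 20 measured neural markers were higher in the arrays titled cortex. The mean of 26 pan-endothelial markers ranged from 9.47 to 11.32 in cortex and from 11.31 to 11.86 in lung, with the low cortex values on arrays 72 and 18. Array medians ran from 6.59 to 6.72, and arrays of 1 tissue correlated at 0.924 to 0.984 over probe sets. Lung 18 stood apart from the other lung arrays. Its beta-actin control probe sets differed by 0.99 log2 units between the 3′ and the 5′ end, against 0.36 to 0.55 on the other 7 arrays, and its values had the smallest SD of all arrays (2.36, against 2.39 to 2.54). Where leaving it out changed the call of one of the 10 genes, both values are given.

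Fibroblasts and the mesenchyme they arise from secrete the fibrous and adhesive proteins around cells. Fibronectin is laid down first and is bound through integrins, tenascin and periostin modulate how cells adhere, and the small leucine-rich proteoglycans decorin and lumican bind collagen fibrils and set their spacing. Such cells are recognised by the receptor Pdgfra and the surface protein Thy1, and by the transcription factors Twist1 and Prrx1, which mark embryonic mesenchyme. Some of these genes are not restricted to fibroblasts. Fn1 and Sparc are also made by endothelium, Tnc by radial glia of the developing brain, and Thy1 by neurons.

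The sequences upstream of 4 of these genes are shown because they stand for the opposite directions seen below: Postn and Twist1 were higher in lung, while Tnc and Prrx1 had the higher mean in cortex. They are the 250 bases before the annotated transcription start, from RefSeq on build GRCm38.p6, 5′ to 3′ along the gene's strand. Capitals mark E-boxes (CANNTG, the letters that Twist1 and related factors bind, which read the same on both strands) and TATAAA on either strand.
Postn, chr3:54360857-54361106, plus strand: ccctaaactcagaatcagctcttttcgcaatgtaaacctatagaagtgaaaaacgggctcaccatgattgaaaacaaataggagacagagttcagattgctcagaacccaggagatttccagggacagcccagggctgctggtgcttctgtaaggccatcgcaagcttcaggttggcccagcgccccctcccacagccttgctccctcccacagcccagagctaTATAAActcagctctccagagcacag
Twist1, chr12:33957421-33957670, plus strand: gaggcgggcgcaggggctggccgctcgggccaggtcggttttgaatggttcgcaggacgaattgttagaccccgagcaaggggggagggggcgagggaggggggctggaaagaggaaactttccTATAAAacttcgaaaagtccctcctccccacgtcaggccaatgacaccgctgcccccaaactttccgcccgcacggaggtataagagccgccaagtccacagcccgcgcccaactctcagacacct
Tnc, chr4:64047016-64047265, minus strand: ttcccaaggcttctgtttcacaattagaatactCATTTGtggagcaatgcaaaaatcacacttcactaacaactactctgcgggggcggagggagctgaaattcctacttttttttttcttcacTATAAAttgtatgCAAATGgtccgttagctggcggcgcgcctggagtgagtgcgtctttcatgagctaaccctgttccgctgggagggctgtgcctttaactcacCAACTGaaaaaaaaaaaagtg
Prrx1, chr1:163313651-163313900, minus strand: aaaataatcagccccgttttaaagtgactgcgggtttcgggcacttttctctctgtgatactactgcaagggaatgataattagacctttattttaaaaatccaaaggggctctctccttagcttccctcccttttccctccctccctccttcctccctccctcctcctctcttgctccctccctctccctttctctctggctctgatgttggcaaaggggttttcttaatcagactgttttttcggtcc
The window of Postn, that of its downstream annotated start, held TATAAA beginning 26 bases before the start, and that of Twist1 beginning 126 bases before it. Tnc, at its upstream annotated start, the one shown, held 3 E-boxes and 1 TATAAA, and Prrx1 held neither motif. The window of the downstream annotated start of Tnc, not shown, held 2 E-boxes and 1 TATAAA. That of the upstream annotated start of Postn, also not shown, held neither motif. Over 32851 promoter windows of the same length, 66.2% held an E-box and 12.4% TATAAA. A promoter was held for 6 of the 10 genes. The windows of the remaining ones, Pdgfra and Sparc, not shown, held 1 and 2 E-boxes and no TATAAA. A match is a description of letters.

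Of the 10 genes, 5 were higher in lung and 0 in cortex by limma (Benjamini-Hochberg adjusted over all 18193 genes, with calls under 0.05), and 5 were not called. Over all genes, 7.71% were called higher in lung and 10.4% higher in cortex. Those called were Postn, Dcn, Fn1, Twist1 and Lum. For the same 5 genes all lung arrays lay above all cortex arrays, as for 12.0% of all genes. Pdgfra, Thy1 and Sparc had the lower mean in cortex without a call, and Prrx1 and Tnc the higher one. The median difference, cortex minus lung, was -1.13 log2 units over the 10 genes and -0.09 over all genes. A median of that size was not particular to the 10: it was -1.10 log2 units over 26 pan-endothelial markers, 25 of which had the lower mean in cortex. Fewer cells of a type and less RNA per cell cannot be told apart in such sorted bulk samples. The count of 5 was 7 without lung 18, 2 without cortex 72, and 3 without cortex 22 or lung 19. In a further setting, called pan-endothelial shifting hereafter, all arrays were brought to one mean of the 26 pan-endothelial markers. This moved the median of all genes to 1.10 log2 units towards cortex. Over all 18193 genes, 149 were then called higher in lung and 4986 higher in cortex. Limma gave every gene the same SE there (0.58), so these calls follow the size of the difference alone. Of the 10, Postn alone was called higher in lung (-3.91 log2 units), and Prrx1 and Tnc were called higher in cortex. The median of the 10 was 0.06, below that of all genes.

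**Figure D1:**
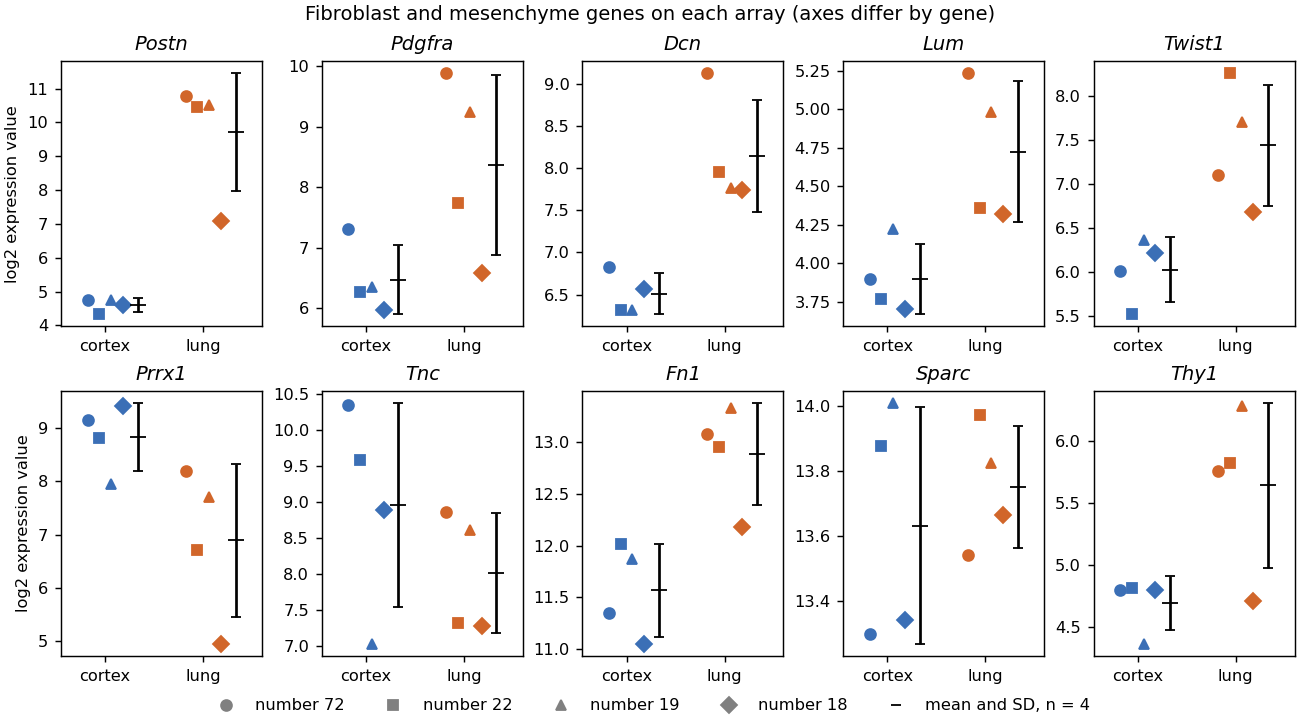
Log2 expression value of each of the 10 genes (vertical axis) on the 4 cortex arrays (blue) and the 4 lung arrays (orange), with the symbol giving the sample number and the black bar the mean and SD. Postn, Dcn, Lum, Twist1 and Fn1 separate the tissues without overlap, and lung 18 (diamond) is the lowest lung array in all panels but that of Sparc.

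Periostin (Postn), a secreted adhesive protein of fibroblasts and of bone and valve mesenchyme, had the largest difference of the 10. It lay at 4.74, 4.32, 4.76 and 4.60 on cortex arrays 72, 22, 19 and 18, and at 10.77, 10.45, 10.51 and 7.09 on the lung arrays in the same order. The cortex arrays had an SD of 0.20, each below the lower quartile of its own array, where such values are compressed, and 3 lung arrays were close together with lung 18 far below them. Even lung 18 was above all cortex arrays. The difference was 34.3-fold towards lung (cortex minus lung -5.10, SE 0.74 log2 units, limma adjusted p = 0.00189), and 0.0550% of all genes differed further towards lung. Without lung 18 it was -5.97 log2 units. Postn was called in all 8 fits that left out an array, and in each other setting tried.

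Fibronectin (Fn1), the adhesive glycoprotein that cells assemble into the first matrix fibrils, lay at 11.35, 12.01, 11.87 and 11.05 on cortex arrays 72, 22, 19 and 18. On the lung arrays in that order it lay at 13.08, 12.95, 13.33 and 12.18. Lung 18 was again lowest in lung, and it lay above the highest cortex array by less than the SD of either tissue. Fn1 was 2.49-fold higher in lung (-1.32, SE 0.30 log2 units, adjusted p = 0.0170), and its call ended without cortex 72 (-1.24 log2 units, adjusted p = 0.0527). Within cortex, Fn1 was higher on arrays 22 and 19, whose pan-endothelial means were 11.22 and 11.32, than on 72 and 18, with means of 9.90 and 9.47. After pan-endothelial shifting the difference of Fn1 was -0.13 log2 units and not called. The part of endothelial content in it was not tested further.

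Sparc (osteonectin), a collagen-binding matricellular protein, was high everywhere. It lay at 13.30, 13.88, 14.01 and 13.34 on cortex arrays 72, 22, 19 and 18 and at 13.54, 13.97, 13.82 and 13.66 on the lung arrays in that order. The lung arrays fell inside the range of the cortex arrays, and the difference of -0.12 (SE 0.20 log2 units, 95% interval -0.58 to 0.34) was not called (adjusted p = 0.716). Within cortex, arrays 22 and 19 were again the higher ones, as for Fn1. The sign of the difference turned after pan-endothelial shifting (1.07 log2 units, not called).

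Tenascin C (Tnc), a hexameric glycoprotein that loosens adhesion to fibronectin, spread most widely in cortex. Its cortex values were 10.34, 9.58, 7.03 and 8.90 on arrays 72, 22, 19 and 18, and its lung values 8.86, 7.33, 8.61 and 7.28 in that order. Cortex 19 was below every lung array and cortex 72 above every one, so the tissues overlapped. The difference of 0.94 (SE 0.70 log2 units, 95% interval -0.64 to 2.53) was not called (adjusted p = 0.392). The array with the lowest Tnc, cortex 19, also had the lowest neural mean of the cortex arrays, 10.57 against 10.83 to 11.16, and the highest pan-endothelial mean. The other cortex arrays did not keep to this order. Cortex 18 had the highest neural mean, 11.16, and the lowest pan-endothelial mean, 9.47, yet less Tnc than cortex 72 and 22. The part of neural transcripts or of endothelial content in the value of Tnc was not tested. After pan-endothelial shifting Tnc was called higher in cortex (2.13 log2 units, limma adjusted p = 0.00217), as were 4986 of all 18193 genes.

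Decorin (Dcn) and lumican (Lum), the small leucine-rich proteoglycans among the 10, are direct neighbours on chromosome 10, followed by Kera and Epyc of the same family. Dcn lay at 6.83, 6.32, 6.32 and 6.57 on cortex arrays 72, 22, 19 and 18, and at 9.13, 7.95, 7.76 and 7.74 on the lung arrays in that order. Lung 72 stood above the other 3 lung arrays, which were close together, and all lung arrays were above all cortex arrays. Dcn was 3.11-fold higher in lung (-1.64, SE 0.31 log2 units, adjusted p = 0.00764) and was called in all 8 fits that left out an array. After pan-endothelial shifting it was -0.45 log2 units and not called.

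Lum lay at 3.90, 3.77, 4.22 and 3.71 on cortex arrays 72, 22, 19 and 18, and at 5.24, 4.36, 4.99 and 4.32 on the lung arrays in that order. All cortex arrays and 2 lung arrays were below the lower quartile of their array, so the 1.78-fold difference is measured where values are compressed. It just passed (-0.83, SE 0.24 log2 units, adjusted p = 0.0448). The call held in 3 of 8 fits that left out an array, and ended when cortex 72, 22 or 18 or lung 72 or 19 was left out, with adjusted p up to 0.115, and the sign turned after pan-endothelial shifting (0.36 log2 units, not called). Neither neighbour was called. Kera, a proteoglycan of cornea, lay at 3.62 ± 0.32 in cortex and 3.86 ± 0.37 in lung, and Epyc, one of cartilage, at 4.52 ± 0.34 and 5.19 ± 0.95 (n = 4 each), where the high SD of Epyc came with 6.61 on lung 18 against 4.59 to 4.80 on the other lung arrays.

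Twist1, a basic helix-loop-helix factor of mesoderm and neural crest mesenchyme, lay at 6.01, 5.51, 6.36 and 6.21 on cortex arrays 72, 22, 19 and 18, and at 7.11, 8.27, 7.71 and 6.68 on the lung arrays in that order. No lung array fell into the cortex range, although lung 18 and cortex 19 were close. Twist1 was 2.67-fold higher in lung (-1.42, SE 0.35 log2 units, adjusted p = 0.0228). Its call ended without any 1 of cortex 72, cortex 22 and lung 19 (adjusted p = 0.0584 to 0.0646). Pan-endothelial shifting also ended it (-0.23 log2 units), as did the sample number as a block (adjusted p = 0.0575).

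Prrx1, a homeobox factor of limb and craniofacial mesenchyme, had the opposite direction from Twist1. It lay at 9.16, 8.82, 7.96 and 9.42 on cortex arrays 72, 22, 19 and 18, and at 8.20, 6.71, 7.71 and 4.94 on the lung arrays in that order. Only lung 72 reached into the cortex range, above cortex 19. Lung 18 was 2.60 log2 units below the mean of the other lung arrays, and below the lower quartile of its own array. The difference of 1.95 (SE 0.67 log2 units, 3.86-fold towards cortex) did not pass (adjusted p = 0.0802). Leaving out lung 72 gave a call (2.39 log2 units, limma adjusted p = 0.0396). So did pan-endothelial shifting (3.14 log2 units), which called 4986 of all 18193 genes higher in cortex. Without lung 18 the difference was 1.30 log2 units and not called. Over the cortex arrays Prrx1 had the order 18, 72, 22, 19, and the neural mean, at 11.16, 11.13, 10.83 and 10.57, had the same order. The pan-endothelial mean, at 9.47, 9.90, 11.22 and 11.32, had the reverse order, so the 2 cannot be told apart here. The part of neural transcripts or of endothelial content in the value of Prrx1 was not tested.

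Pdgfra, the receptor through which platelet-derived growth factor drives mesenchymal cells, lay at 7.31, 6.27, 6.36 and 5.98 on cortex arrays 72, 22, 19 and 18. Its lung values were 9.89, 7.73, 9.25 and 6.59 in that order. Lung 72, 22 and 19 were above all cortex arrays, and lung 18 lay inside the cortex range. The difference of -1.89 (SE 0.68 log2 units, 3.70-fold towards lung) did not pass over all arrays (adjusted p = 0.0918). Without lung 18 it was -2.48 log2 units and passed (adjusted p = 0.0182). It also passed over all arrays with the sample number as a block (adjusted p = 0.0321).

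Thy1, a lipid-anchored surface glycoprotein, lay at 4.80, 4.81, 4.36 and 4.80 on cortex arrays 72, 22, 19 and 18, and at 5.76, 5.83, 6.29 and 4.71 on the lung arrays in that order. Lung 18 lay at the level of cortex, below 3 of the cortex arrays, and the other lung arrays were above all of them. All cortex values and that of lung 18 were below the lower quartile of their array, where values are compressed. Over all arrays the difference of -0.95 (SE 0.31 log2 units) did not pass (adjusted p = 0.0693), and without lung 18 it did (-1.26 log2 units, adjusted p = 0.00419). Its sign turned after pan-endothelial shifting (0.24 log2 units, not called).

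Of the 10 genes, 6 had several probe sets, and these did not all behave alike. Of their 12 other probe sets, 2 had the opposite sign, both of Prrx1 and neither called. Over the 45037 probe sets 12.2% were called in either direction, and of these 12 only 1 was, a second probe set of Pdgfra (-1.72 log2 units, limma adjusted p = 0.0268 over all probe sets). The second probe set of Fn1 gave -1.08 log2 units, that of Tnc 1.25 and that of Dcn -1.18, each with the sign of the probe set used and none called. When the probe sets of a gene were averaged, Pdgfra passed towards lung (-1.36 log2 units, adjusted p = 0.00586) and Prrx1 towards cortex (0.63 log2 units, adjusted p = 0.0432).

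**Figure D2:**
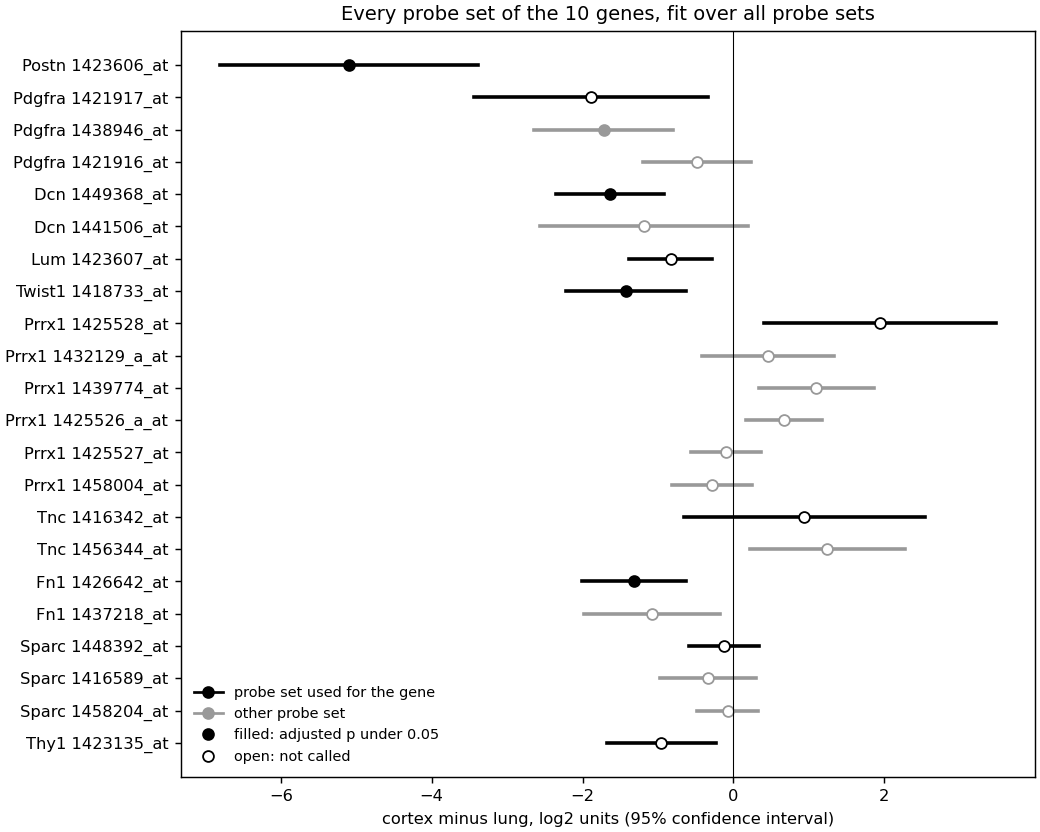
Cortex minus lung in log2 units (horizontal axis) with its 95% confidence interval for all 22 probe sets of the 10 genes, black for the probe set used and grey for the others, filled where the adjusted p over all probe sets was under 0.05. Postn stands furthest to the left, and the probe sets of Prrx1 fall on both sides of 0.

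Within lung, the genes differed by array. Lung 18 was the lowest lung array for 9 of the 10, all but Sparc, while it was lowest for 30.4% of all genes. Lung 72 was the highest for 6 of the 10 and for 41.4% of all genes. The gap between the mean of lung 72, 22 and 19 and lung 18 was 3.49 log2 units for Postn, and 3 genes in all had a gap at least as large. It was 2.60 for Prrx1, 2.37 for Pdgfra, 1.25 for Thy1, 1.01 for Twist1 and 0.98 for Tnc. The mean of the 10 genes on lung 18, 7.52, fell into the range of the cortex arrays, 7.32 to 7.77, and was 8.55 to 9.16 on the other lung arrays. Opposite differences offset each other in that mean. On lung 18, Prrx1 and Tnc lay below their cortex means (-3.89 and -1.68 log2 units). The other genes lay above theirs, most of all Postn (2.49) and Dcn (1.23).

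The other probe sets of the same genes ordered the lung arrays differently. Lung 18 was the lowest lung array on 1 of the 12 and the highest on 7, against 34.2% lowest and 25.0% highest over the other probe sets of all genes. Those 7 had low means over the 8 arrays, 4.05 to 6.46, below every array median. The lower quartile of lung 18 was the highest of all arrays (5.16, against 4.87 to 5.12). The brightest other probe sets, of Sparc (mean 13.52) and Fn1 (7.83), read lower on lung 18 than the mean of the other lung arrays (-0.14 and -0.76 log2 units). Dim ones of Pdgfra (mean 5.12) and Prrx1 (5.52 and 5.25) read lower there too (-0.57, -0.28 and -0.25 log2 units). A low mean thus did not separate the probe sets that read higher on lung 18 from the others. For Dcn, the probe set used had lung 18 lowest, at 7.74, and lung 72 highest, at 9.13, whereas the second had lung 18 highest, at 7.89, and lung 72 lowest, at 4.77. For Pdgfra a second probe set, the one that was called, read 7.98 on lung 18 and 5.84 to 7.14 on the other lung arrays. Probe sets of Fn1 kept lung 18 lowest on both. What the other probe sets detect on lung 18 was not tested.

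**Figure D3:**
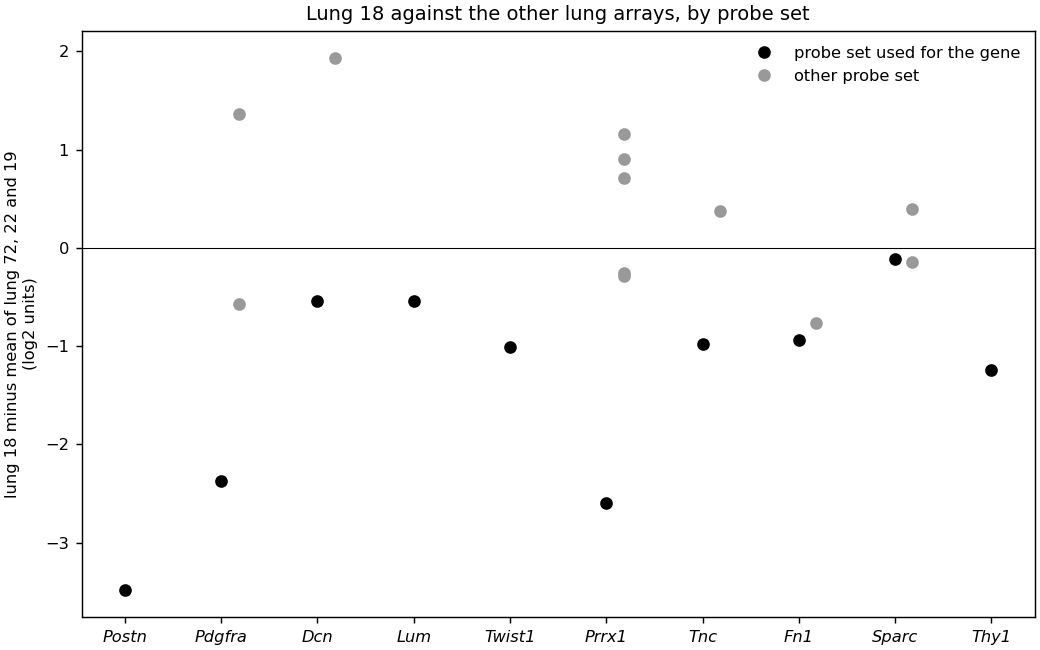
Lung 18 minus the mean of lung 72, 22 and 19 in log2 units (vertical axis) for each probe set of the 10 genes, black for the probe set used and grey for the others. All 10 black points lie below 0, from -3.49 for Postn to -0.12 for Sparc, and 7 of the 12 grey points lie above it. These 7 are of probe sets with low means, 4.05 to 6.46, but grey points below 0 include probe sets of Pdgfra and Prrx1 with means of 5.12 to 5.52.

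Markers of other cells moved with these arrays. The mean of 10 fibroblast collagens was 10.29, 9.16, 9.63 and 8.38 on lung arrays 72, 22, 19 and 18, so it was lowest on lung 18 and highest on lung 72, and 6.37 to 7.11 in cortex. The mean of 16 mural cell markers, genes of pericytes and smooth muscle, was 8.08, 7.30, 7.50 and 6.77 on the lung arrays in that order and 6.88 to 7.16 in cortex, with lung 18 below all cortex arrays. Of these 16, 3 were higher in lung and 2 in cortex. The smooth muscle actin Acta2 (-4.66 log2 units) and the pericyte-associated Vtn (3.03 log2 units) differed most. Pdgfrb, the mural receptor related to Pdgfra, lay at 10.56, 8.57, 9.63 and 6.38 on the lung arrays in that order and at 7.87 to 8.55 in cortex. The mean of 8 mesothelial markers, genes of the lining of the lung, was 6.84, 6.08, 5.80 and 5.35 in lung and 4.77 to 4.89 in cortex. Of them 5 were higher in lung, with Wt1 (-2.12 log2 units) and Aldh1a2 (-2.05 log2 units) furthest apart. The order 72, 19, 22, 18 within lung was not particular to such lists. Lung epithelial markers (8.62, 7.91, 7.63 and 7.26) and macrophage markers (6.73, 6.41, 6.07 and 5.75) had it too. So had the SD of all values of an array (2.54, 2.51, 2.39 and 2.36). The scale has no zero, and the part of any of these cell types in the values of the 10 genes was not tested.

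**Figure D4:**
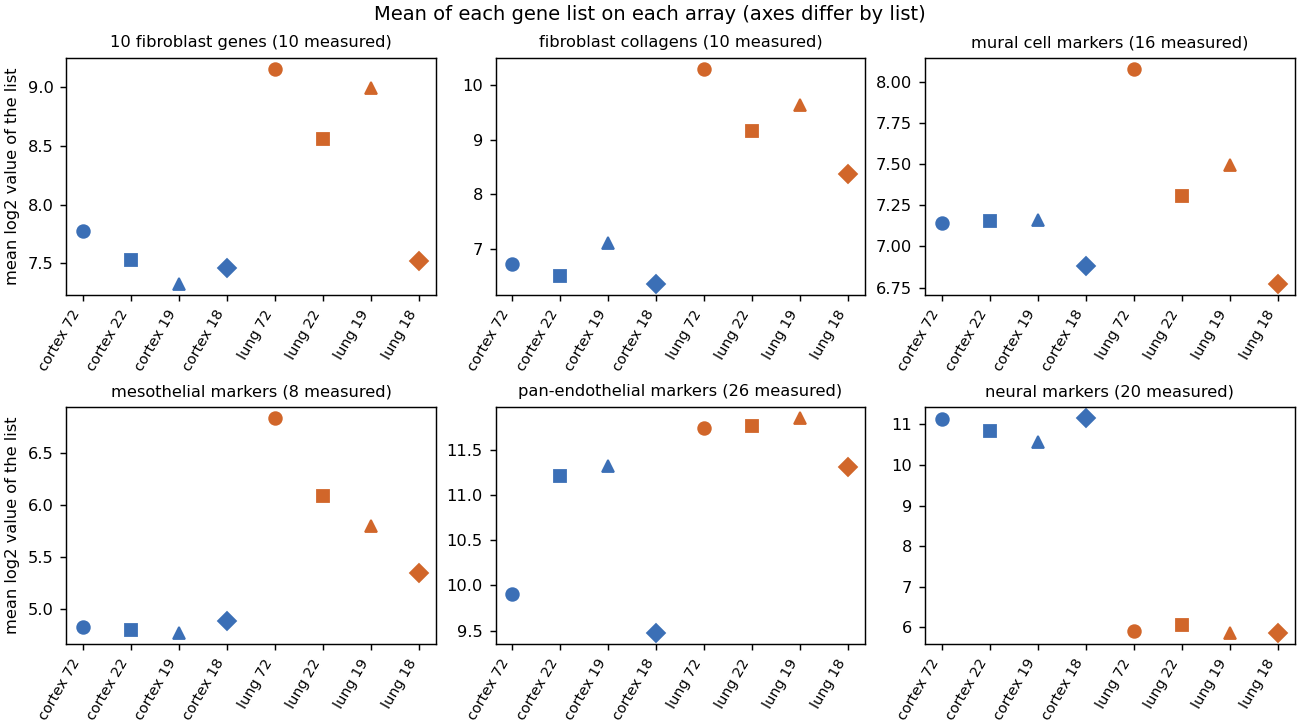
Mean log2 value of 6 gene lists (vertical axis) on each of the 8 arrays, blue for cortex and orange for lung, with the same symbols for sample numbers as in the plot of single genes. The 10 genes, fibroblast collagens and mural markers share the order 72, 19, 22, 18 within lung, as do lung epithelial and macrophage markers, which are not drawn. Pan-endothelial means lie between 11.31 and 11.86 there and are also lowest on lung 18.

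Markers of further cell types were compared in the same way, without showing which cells were present. Of 13 measured meningeal fibroblast markers, 2 were higher in cortex, the factors Zic1 (5.50 log2 units) and Zic2 (4.14 log2 units), which neural cells also express, and 3 were higher in lung, among them Col15a1 (-2.40 log2 units). The mean of that list was 7.31 to 7.69 in cortex and 6.82 to 7.59 in lung. Of 20 neural markers, Neurod6 (7.99 log2 units) and Tubb3 (7.23 log2 units) led. Of 14 macrophage markers 5 were higher in cortex, led by C1qb (4.48 log2 units), and 1 in lung, Lyve1 (-4.99 log2 units), which vessels also express. That list's mean was 5.84 on cortex 18 and 8.12 to 8.79 on the other cortex arrays. Of 9 erythroid markers 2 were higher in cortex, Hba-x (2.63 log2 units) and Hbb-y (1.78 log2 units), and of 12 lung epithelial markers 4 were higher in lung, led by Bmp4 (-4.49 log2 units) and Krt18 (-3.94 log2 units), and 1 in cortex, Sox9. Of the 26 pan-endothelial markers 6 were higher in lung, led by Clec14a (-3.14 log2 units) and Emcn (-2.21 log2 units).

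The relatives of these genes were compared by list, leaving out the 10 themselves. Fibroblast collagens leaned most to lung, with 9 of 10 called higher there and a median of -2.68 log2 units, led by Col3a1 (-4.22), Col1a2 (-4.22) and Col14a1 (-3.39). After pan-endothelial shifting 5 of them were called higher in lung. Among 38 other measured fibroblast and mesenchyme genes, 15 were higher in lung and 5 in cortex (median -0.56). The microfibril protein Mfap5 (-4.21), the calcium-binding S100a4 (-3.63) and the fibulin Fbln2 (-3.56) led towards lung. Those higher in cortex were Gas1 (2.74), Crabp1 (2.07), Ebf2 (1.50), N-cadherin Cdh2 (1.36) and Ptn (1.23), several of which neural progenitors also express. The number higher in cortex was 2 when cortex 18 or lung 22 was left out and 3 when cortex 72, cortex 19 or lung 19 was, and pan-endothelial shifting gave 6 towards lung and 8 towards cortex.

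Of 13 other small leucine-rich proteoglycans 1 was called, Chad, higher in lung (-1.02 log2 units), and the median was -0.31. Without cortex 22 it was 2, and after pan-endothelial shifting 0 were higher in lung and 1 in cortex. Among 15 other matricellular genes 4 were higher in lung, Thbs2 (-2.77), Ccn4 (-2.28), Ccn3 (-2.04) and Ccn2 (-1.21), and Thbs3 was higher in cortex (2.01). Pan-endothelial shifting left 1 higher in lung and gave 2 in cortex. The SPARC family split. Spock2, a brain proteoglycan, was 5.64 log2 units higher in cortex, with Spock1 (1.55) and Spock3 (1.21), while Fstl1 (-1.96) and Smoc2 (-0.49) were higher in lung. Of those higher in lung 1 was left without any 1 of the 4 cortex arrays, lung 22 or lung 19, and 0 after pan-endothelial shifting. Of those higher in cortex 2 were left without any 1 array other than cortex 22.

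Of 19 other mesenchymal transcription factors 7 were higher in lung and 0 in cortex (median -0.83). The factor Tcf15 (-2.57 log2 units) led, with the Snail factors Snai2 (-1.94) and Snai1 (-1.92), and Twist2, the paralogue of Twist1, just passed (-1.83, limma adjusted p = 0.0496). Unlike any of the 10 on the probe sets used for them, Tcf15 was highest in lung on lung 18 (10.16, against 9.24 to 9.99 on the other lung arrays). The count was 2 without any 1 of cortex 72, cortex 18 and lung 19, 3 without cortex 22 and 0 after pan-endothelial shifting, which called 1 higher in cortex, as did leaving out lung 72. Among the other 5 genes of the PDGF system, the ligand Pdgfd was higher in lung (-2.32, adjusted p = 0.0308) and the Pdgfra ligand Pdgfc higher in cortex (1.43, adjusted p = 0.0188). Pdgfd lost its call without any 1 of cortex 72 and lung 72, 22 and 19 and after pan-endothelial shifting (-1.13 log2 units), and Pdgfc without any 1 of cortex 72, cortex 18, lung 22 and lung 19. Of 10 integrins that bind fibronectin, periostin or tenascin, Itga8 (-3.42), Itga5 (-1.68), Itgb3 (-1.50), Itgb1 (-1.37) and Itga9 (-1.36) were higher in lung, and Itgb8 in cortex (4.20). Those higher in lung numbered 2 without cortex 72 or lung 19, 3 without cortex 18, lung 72 or lung 22, and 1 after pan-endothelial shifting, which gave 2 in cortex.

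**Figure D5:**
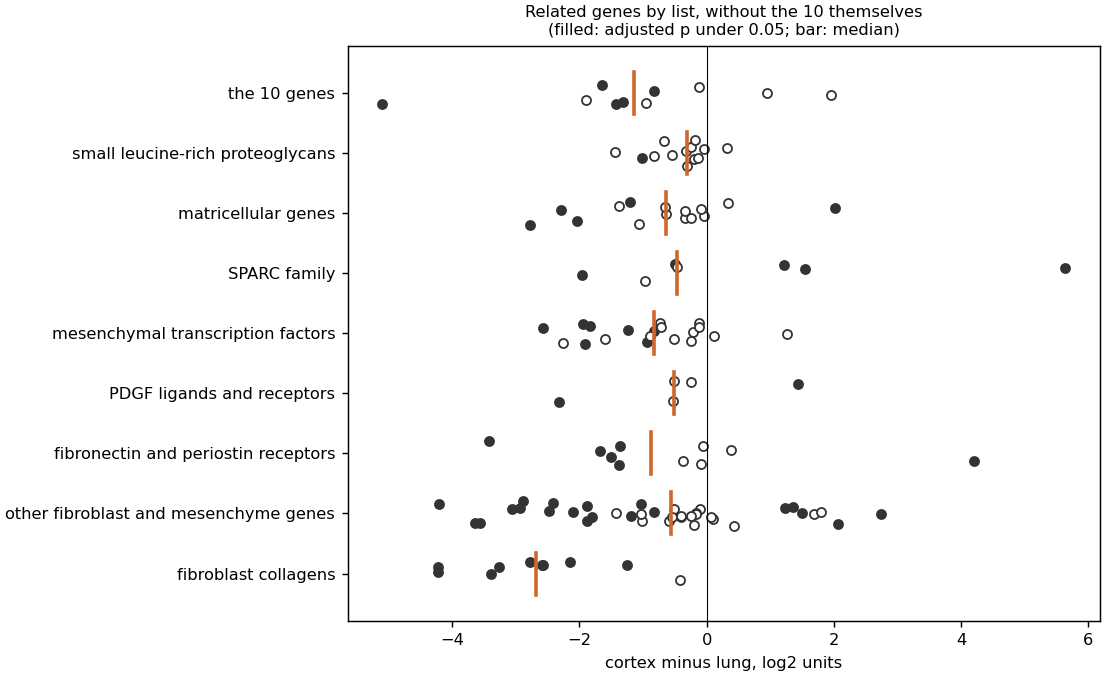
Cortex minus lung in log2 units (horizontal axis) of each gene in the related lists, without the 10 genes, and of the 10 genes themselves in the top line, filled where the adjusted p was under 0.05, with the median as a bar. Fibroblast collagens lie furthest towards lung (median -2.68), and only the SPARC family and the integrins reach beyond 4 log2 units towards cortex.

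Outside the 10, the genes whose pattern over the 8 arrays was most like the mean of the 10 (each centred and scaled) were Vstm4 (Pearson r = 0.993), Sh3pxd2b (r = 0.990) and Arhgap1 (r = 0.986). The arrays share the split into 2 tissues, and r is given as a description. Vstm4 lay at 8.94, 7.52, 8.35 and 5.62 on lung arrays 72, 22, 19 and 18 and at 5.21 to 5.76 in cortex, so lung 18 was at the cortex level, as for Pdgfra and Thy1. It did not pass over all arrays (-2.06 log2 units, adjusted p = 0.0537) and passed without lung 18 (-2.72 log2 units, adjusted p = 0.00143). Over the 7 arrays without lung 18, r was 0.994 for Vstm4, 0.984 for Sh3pxd2b and 0.984 for Arhgap1.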

How the data were processed

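RNA of sorted cells (15 to 30 ng per the labels) was linearly amplified and hybridised to Affymetrix Mouse Genome arrays, 4 per tissue, whose number limits the precision. The values the authors deposited are on the log2 scale, 1 for each probe set and array. RMA (background correction, quantile normalization, summary over probes) and affy are named in the submitters' processing notes. Their versions are not given in the sources used here. A difference after such normalization is relative to the other probe sets. All 8 columns were mapped by sample identifier, and 0 were left out.

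Genes were named from the platform's annotation table. Of 45037 probe sets that are not controls, 34945 named 1 gene, 932 several and 9160 were unnamed here. The difference, cortex minus lung, was fitted by lmFit and eBayes of limma 3.58.1 under R 4.3.3, without a replicate block, two-sided, adjusted by the Benjamini-Hochberg method, calls at adjusted p under 0.05, with 95% confidence intervals. The labels give 4 litters and do not say whether equal sample numbers mark 1 litter. On simulated data over the 18193 genes, 76 of 100 genes changed by 2 log2 units and 38 of 100 changed by 1 were called, with 8 false calls among 122.

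The members and lists were chosen with earlier results of these data known. The genes named were the 10, from each related list up to 3 called genes with the largest difference, from each marker list up to 2, Tek, Kera, Epyc and the 3 genes most alike. Ccn2, Thbs3, Spock3, Smoc2, Twist2, Pdgfrb, Itgb3, Itgb1, Itga9, Gas1, Crabp1, Ebf2, Cdh2, Ptn, Sox9 and Col15a1 are outside that rule and were named after their values were seen. Alternatives were the replicate block, averaged probe sets, all probe sets, a filter on dim genes (means under 6.65 in both tissues), array medians, a common pan-endothelial mean, array weights, an intensity trend and each array left out. Leaving out both arrays numbered 18, or cortex 72 and 18, was chosen after seeing the data.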

Additional observations from a re-analysis of the deposited data

Results flagged for a closer look

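In groups of 4 arrays, an array was looked at again where its gap to the nearest other array divided by the group's range was above Dixon's 95% critical value. Chance flags about 1 in 20 groups, and 3 of 20 passed. The share over all genes was 5.01% in lung and 4.92% in cortex. Postn in lung had a ratio of 0.913, with lung 18 low at 7.09. Dcn in lung had a ratio of 0.847, with lung 72 high at 9.13. Thy1 in cortex had a ratio of 0.961, with cortex 19 low at 4.36 and the others at 4.80 to 4.81, all below the lower quartile of their array. Lung 18 being low with a ratio past the limit held for 0.918% of all genes.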

How the results depend on the processing

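Postn kept its direction and call in all 18 alternatives run (-5.97 to -3.91 log2 units). The count of the 10 genes higher in lung ranged from 2 to 7 over the fits that left out an array, and that higher in cortex from 0 to 1 (Prrx1 without lung 72). With a common pan-endothelial mean the counts were 1 and 2, over all genes 149 and 4986, and the differences of Lum, Sparc and Thy1 turned to 0.36, 1.07 and 0.24. Limma gave all genes the same SE there (0.58), so its calls follow the size of the difference alone. Averaged probe sets gave 1 higher in cortex. Without cortex 72 and 18 the count of the 10 higher in lung was 2, Sparc turned to 0.19, and over all genes 632 were higher in lung and 1057 in cortex. Array weights gave 2233 genes higher in lung, and leaving out both arrays numbered 18 gave 929. Over all genes, leaving out an array gave 956 to 1274 higher in lung and 1393 to 1966 higher in cortex. With medians centred, the split was 1732 to lung and 1660 to cortex, against 1403 and 1888. Lum and Thy1 have no value with the dim filter, which left them out. Whether equal sample numbers mark a shared litter is not stated, and the values do not settle it: deviations of equal-numbered arrays correlated at 0.33, -0.16, 0.01 and 0.31 for 72, 22, 19 and 18. With the replicate block 5 of the 10 were higher in lung, as without it, and 0 in cortex, with Pdgfra called (adjusted p = 0.0321) and Twist1 not (adjusted p = 0.0575), and over all genes 1342 and 1801. The cause of each change was not tested.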
